A study of Mus musculus with 2 samples.

Results

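Chemokine-rich neutrophils were examined in single-cell RNA libraries of mouse pancreatic tumours, as the neutrophils that carried transcripts of Ccl3 and Ccl4. They were chosen barcode by barcode with a fixed gate. A member had at least 1000 UMIs (unique molecular identifiers, 1 for every transcript captured), at least 500 genes and at most 20% mitochondrial UMIs. At least 3% of its UMIs came from S100a8 and S100a9, the calprotectin genes that dominate the neutrophil transcriptome, and at least 5 UMIs from Ccl3 and Ccl4 together. Immature granulocytes were kept out by requiring under 10 UMIs of the secondary granule genes Camp, Ngp and Ltf and under 10 of the primary granule genes Elane, Mpo and Prtn3. Macrophages, B cells, T cells and epithelial cells were kept out by at most 2 UMIs of C1qa, C1qb and C1qc and by 0 UMIs of Cd79a, Cd3e and Epcam. Of 36662 kept cells in both libraries, 6468 were members. Of these, 6445 were among the 26790 kept cells of the takinib library and 23 among the 9872 of the vehicle library, so that 99.6% of the members came from takinib.

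The samples were tumours from the pancreas of KPPC mice, which are engineered to develop pancreatic ductal cancer. The labels do not name the alleles, the Cre driver, the strain or the number of mice per library. All mice were 6 weeks old, and both libraries came from whole digested tumour without a sort. One group received vehicle and the other received takinib at 50 mg/kg, both for 14 days. Takinib inhibits TAK1, the kinase encoded by Map3k7 that relays interleukin-1, TNF and Toll-like receptor signals to NF-kB and AP-1. There was 1 library per group, so that no test between treatments was possible and no p-value is given. Intervals in square brackets are 95% intervals for counting error only, exact Poisson for levels and exact Clopper-Pearson for shares.

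Neutrophils are short-lived granulocytes made in the bone marrow, and they enter tissue from blood along gradients of CXC chemokines sensed by the receptor CXCR2. In tissue they can themselves make cytokines. Ccl3 and Ccl4 encode the inflammatory chemokines MIP-1α and MIP-1β, which attract monocytes, macrophages and T cells. Cxcl1, Cxcl2 and Cxcl3 encode CXCR2 ligands that draw in more neutrophils, and Il1b encodes interleukin-1β, a central inflammatory cytokine that is stored as a precursor. Many of these genes are classical targets of NF-kB.

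The libraries differed in more than the drug. The vehicle file listed 704261 barcodes with 80850334 UMIs and the takinib file 34158 barcodes with 139292875 UMIs, of which no takinib barcode held fewer than 500. The file headers name different versions of Cell Ranger. Kept cells had a median of 3594.5 UMIs and 8.68% mitochondrial UMIs in vehicle, against 3049.5 and 1.84% in takinib. Treatment, library, software, barcode filter and depth cannot be told apart. The kept cells of both libraries shared 400 barcode sequences. Of the takinib members, 83 had a barcode that was also kept in vehicle, and 0 had the barcode of a vehicle member.

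Members made up a larger share of mature neutrophils in the takinib library than in the vehicle library. The mature neutrophils, those passing every gate except that on Ccl3 and Ccl4, numbered 9305 in takinib and 94 in vehicle. Of these, 69.3% [68.3, 70.2] were chemokine-rich in takinib and 24.5% [16.2, 34.4] in vehicle. The rest, with under 5 UMIs of Ccl3 and Ccl4, were 2860 takinib and 71 vehicle cells, called low Ccl3/Ccl4 neutrophils here. The takinib members held 19300015 UMIs in all, with a median of 2311 UMIs, 828 genes and 0.963% mitochondrial UMIs per cell. The vehicle members held 31842 UMIs, with a median of 1254 UMIs and 14.4% mitochondrial UMIs. A gate of a fixed number of UMIs passes deep cells more readily. With every cell thinned to 1000 UMIs at random the shares were 57.6% [56.6, 58.6] in takinib and 18.1% [10.9, 27.4] in vehicle.

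Within takinib the share of members grew with depth. It was 44.9% of the 2430 mature neutrophils with 1000 to under 1500 UMIs, 68.9% of the 3596 with 1500 to under 2500, 86.0% of the 2438 with 2500 to under 5000 and 92.7% of the 841 with 5000 or more. In vehicle 20.8% of 77 cells in the first range and 46.7% of 15 in the second were members, and 0 of 2 in the third. These are values of 1 library each, and the cells are not replicates of a treatment.

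**Figure D1:**
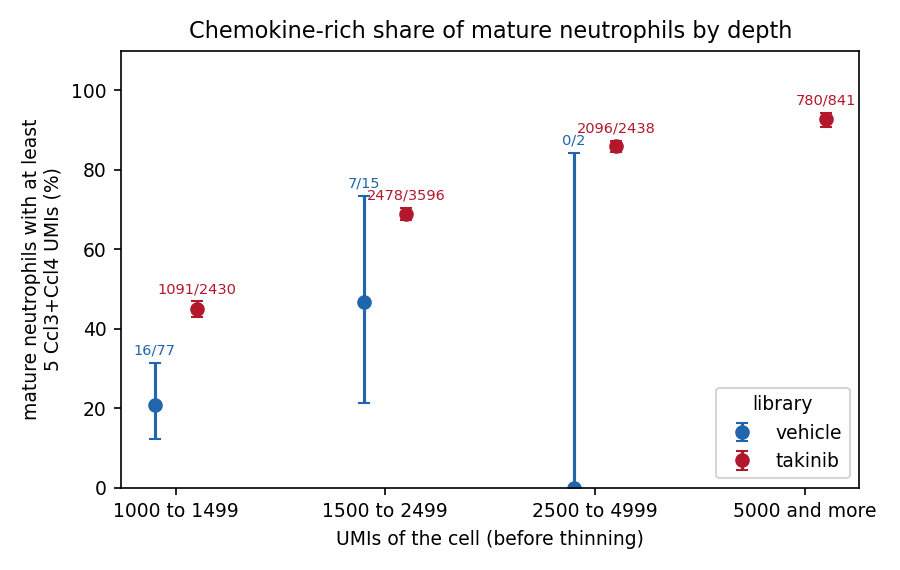
Share of mature neutrophils with at least 5 Ccl3 and Ccl4 UMIs (vertical axis, %) in 4 ranges of UMIs per cell (horizontal axis), for vehicle (blue) and takinib (red). Points are shares with exact 95% Clopper-Pearson intervals and numbers are members over mature neutrophils; the takinib share is 44.9% in the shallowest and 92.7% in the deepest range.

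The count of Ccl3 and Ccl4 UMIs per takinib member, which chose the cells, ran from 5 to 492 with a median of 28. The middle range from the 25th to the 75th percentile was 14 to 56, and the 90th percentile was 98. The 23 vehicle members held 5 to 27 such UMIs, with a median of 9. Both genes were detected in 5260 takinib members (81.6%), Ccl3 alone in 1111 (17.2%) and Ccl4 alone in 74 (1.15%), and 71.1% held more Ccl3 than Ccl4 UMIs. The level of Ccl3 was 8823 CPM (UMIs of the gene per 1000000 UMIs of the group) in takinib members and 475 CPM in low cells, and that of Ccl4 was 5417 against 152 CPM. In vehicle members Ccl3 stood at 5653 CPM [4857, 6542] and Ccl4 at 1821 CPM [1383, 2355]. The gate set these contrasts and they are a description. Cells on either side of it had levels close to each other. Those with exactly 4 UMIs (262 cells) and exactly 5 UMIs (227 cells) had Cxcl2 at 18131 and 19655 CPM, Il1a at 241 and 298 CPM, Tnf at 176 and 150 CPM, Cxcr2 at 445 and 387 CPM and Retnlg at 6033 and 5171 CPM.

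Ccl3 and Ccl4 UMIs were also found in barcodes of other cell types, and whether free RNA, doublets or the cells' own transcripts gave them was not tested. Of 672 takinib B cells (at least 2 Cd79a UMIs), 18.0% held at least 5, and 10.3% did so after thinning, with a median of 0 per cell and a median depth of 1707 UMIs. Their levels were 1375 CPM for Ccl3 and 657 CPM for Ccl4, both above those of the low neutrophils, which the gate caps. Of the 174 vehicle B cells 0.575% held at least 5. C1q macrophages of takinib (at least 10 C1q UMIs, 3181 cells) reached 25.9% before and 5.63% after thinning. Immature neutrophils (637 cells), defined by granule genes, reached 45.5% and 27.5%. The thinned takinib share of 57.6% among mature neutrophils was above all 3. These groups leave out many other cells. Of all 26790 kept takinib cells, members included, 49.0% held at least 5 such UMIs before and 33.2% after thinning.

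Of the 10 neutrophil markers the gate used S100a8 and S100a9, and these say nothing more about the label. The other 8 were all at 10 CPM or more in the takinib members, from Cxcr2 at 300.5 CPM to Retnlg at 4689.8 CPM, and summed to 10017 CPM against 15458 CPM in low cells. After thinning, Retnlg was detected in 65.9% of takinib members and 14.6% of takinib B cells, and Cxcr2 in 20.6% and 2.53%. The remaining markers were not compared with B cells. The 23 vehicle members held 10 Retnlg and 9 Cxcr2 UMIs. The gate also set Cd79a, Cd3e and Epcam to 0 and capped the C1q genes. With these included, macrophage markers summed to 759 against 936 CPM and monocyte markers to 649 against 757 CPM. Eosinophil markers summed to 16.1 against 34.4 CPM with Il5ra at 0 in the members. T and NK markers gave 14.0 against 23.5 CPM, B markers 4.40 against 8.89 CPM and epithelial markers 73.2 against 104 CPM. Fibroblast markers were higher in members, with 236 CPM against 173 CPM, as were the sparse basophil and mast cell markers (6.89 against 4.35 CPM), dendritic markers (2.38 against 1.14 CPM) and endothelial markers (15.8 against 14.8 CPM). Doublet scores were also higher in members, with a median of 0.0539 against 0.0334, and 3.65% against 2.13% of the cells were among the 6% with the highest scores. The part of RNA from these other cell types in the contrasts was not tested. Without those highest-scoring cells the contrast below had 59 higher and 45 lower genes, in place of 56 and 38.

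Of the 5 genes that mark the group, Il1b did not set members apart. Cxcl2 and Cxcl3 were higher in members than in low Ccl3/Ccl4 neutrophils, at 32798 against 15053 CPM (log2 ratio 1.12) and 3302 against 1247 CPM (1.40). Il1b was 7006 CPM [6969, 7043] in members and 6804 CPM [6734, 6875] in low cells, a log2 ratio of 0.04. Ratios here are log2 of (CPM + 10) over (CPM + 10), which understates changes of genes of low level. In cells thinned to 1000 UMIs, Cxcl2 had a median of 27 UMIs in members and 12 in low cells, with 10th to 90th percentiles of 8 to 69 and 2 to 34, so that the cells of both groups overlapped. Il1b had a median of 5 in each, with 1 to 15 and 1 to 17. At least 1 Il1b UMI was found in 91.5% of members and 90.3% of low cells after thinning, against 33.8% of B cells. The Il1b ratio moved with depth, at -0.34, -0.04, 0.43 and 1.20 in the 4 depth ranges from shallow to deep.

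With the pseudocount of 10 CPM, members differed from low cells by over 2-fold in a small part of the transcriptome. The highest ratios were those of Cxcl1, Csf3, Il1a, Atf3 and F3, and the lowest those of 3 islet hormone genes. Of 9293 genes with at least 50 counts in either group, 56 were over 2-fold higher in members (0.603%) and 38 over 2-fold lower (0.409%), counting a log2 ratio beyond 1. The genes of the gate were left out. A gene at or below 10 CPM in both groups cannot pass this limit, so the small share is in part set by the pseudocount. With a pseudocount of 1 CPM, 139 genes were higher and 145 lower. Low cells were shallower than members, with a median of 1539 against 2311 UMIs. The median gene had a ratio of -0.12 and 29.2% of genes lay above 0. With ratios centred on that median, 91 genes were higher and 16 lower, so that the higher share of these calls went from 59.6% to 85.0%. With levels and gate taken from thinned cells, 34 were higher and 52 lower.

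**Figure D2:**
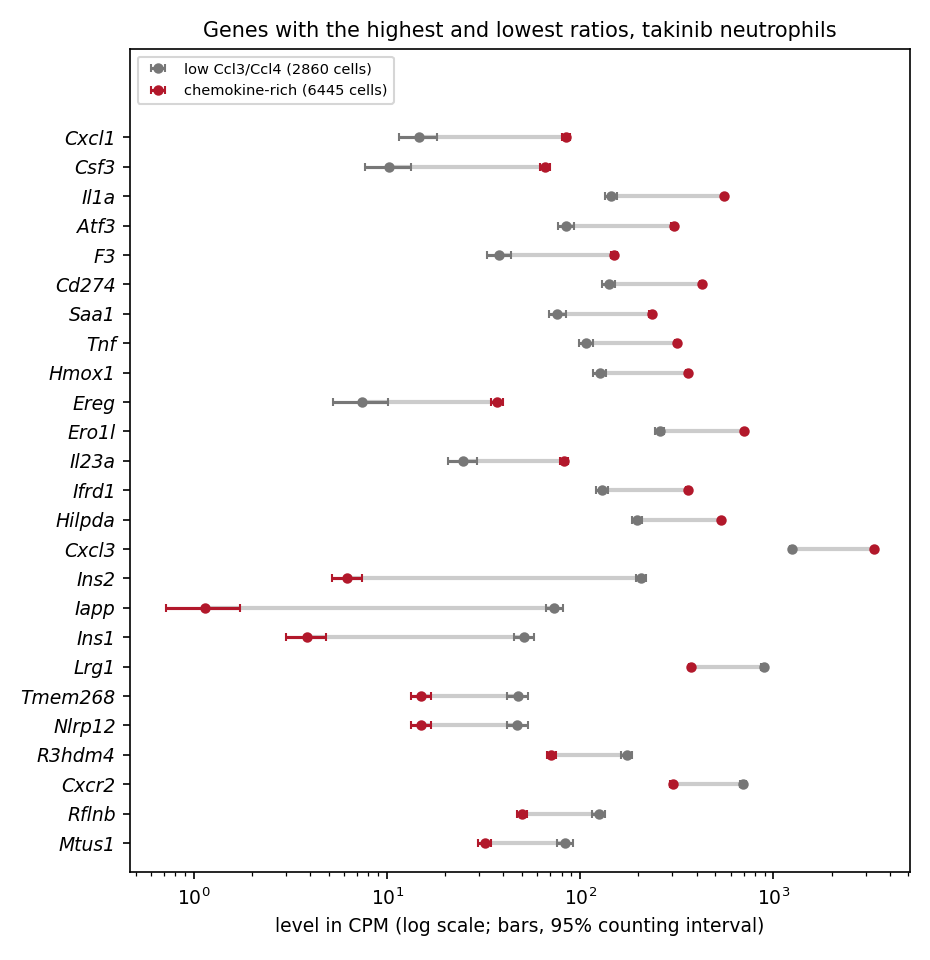
Levels (horizontal axis, CPM on a log scale) of the genes named for the 15 highest and 10 lowest ratios in chemokine-rich (red) against low Ccl3/Ccl4 (grey) takinib neutrophils, with exact 95% Poisson intervals. With unthinned counts and a pseudocount of 10 CPM, Cxcl1 has the highest ratio, at 84.5 against 14.6 CPM, and Ins2, Iapp and Ins1 the lowest.

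Cxcl1, Cxcl2 and Cxcl3 were higher in members, and Cxcr2 was lower over all depths together. Without thinning and with the pseudocount of 10 CPM, Cxcl1 had the highest ratio of all, at 84.5 CPM [80.5, 88.7] against 14.6 CPM [11.5, 18.2] (1.94), although it was sparse. Thinned to 1000 UMIs its ratio was 1.23, while that of Csf3 was at least 1.63 in every alternative setting. After thinning, 3.38% of members and 0.769% of low cells held a Cxcl1 UMI. The share in B cells, which should lack the gene, was 1.79%, so that the share in low cells is not read as expression. Cxcr2, the receptor for these ligands, was lower in members, at 300.5 CPM [293, 308] against 695 CPM [673, 718] (-1.18). It was detected in 20.6% of thinned members, 46.1% of thinned low cells and 2.53% of thinned B cells. The ratio of Cxcr2 shrank with depth, from -1.95 through -1.39 and -0.87 to 0.10 in the deepest range, where only 61 low cells remained. Of 8 measured CXC chemokines and receptors, 3 were over 2-fold higher and 1 lower. Cxcl5, another CXCR2 ligand, was sparse and stood at 8.60 against 14.0 CPM (-0.37). Cxcl10, an interferon-induced chemokine, stood at 78.3 against 54.9 CPM, and Cxcr4, the marrow-retention receptor, at 131 against 151 CPM.

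Cxcl3, Cxcl1 and Cxcl2 lie together on chromosome 5 (GRCm38, starting at 90786103, 90891241 and 90903871, all on the plus strand), and Ccl3 (83647844 to 83649355, minus strand) and Ccl4 (83662584 to 83664683, plus strand) lie side by side on chromosome 11. Their RefSeq promoters (GRCm38.p6) are shown because the 3 Cxcl genes had ratios past 2-fold and Ccl3 defined the members. Each sequence gives the 120 bases before the start site of the RefSeq promoter in the direction of the gene, at chr5:90891125-90891244 for Cxcl1, chr5:90903779-90903898 for Cxcl2, chr5:90785981-90786100 for Cxcl3 and chr11:83649379-83649498 for Ccl3. These start sites are not the gene starts given above, and the Cxcl1 and Cxcl2 windows reach past those. Capitals mark the longest run of bases that the 250 bases before the start sites of the 3 Cxcl genes have in common.
Cxcl1: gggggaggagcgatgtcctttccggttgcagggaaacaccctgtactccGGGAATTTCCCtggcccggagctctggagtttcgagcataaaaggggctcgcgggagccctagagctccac
Cxcl2: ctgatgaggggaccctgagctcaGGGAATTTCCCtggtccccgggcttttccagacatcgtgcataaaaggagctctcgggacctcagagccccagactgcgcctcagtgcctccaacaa
Cxcl3: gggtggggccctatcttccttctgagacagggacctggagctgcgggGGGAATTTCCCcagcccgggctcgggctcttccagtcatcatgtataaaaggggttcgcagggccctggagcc
Ccl3: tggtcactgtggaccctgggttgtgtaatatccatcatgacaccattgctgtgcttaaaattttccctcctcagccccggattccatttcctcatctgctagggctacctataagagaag

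The shared run, GGGAATTTCCC, is 11 bases long and has the form of the kappaB element, the DNA sequence known to be bound by NF-kB dimers. It began at position -71 in Cxcl1, -97 in Cxcl2 and -73 in Cxcl3, counted from the start site. On either strand of the 250 bases it was found in 14 of 27025 genes with a promoter in the table (0.0518%) and in 5 of 7338 genes that were also compared here. Among the 43 genes over 2-fold higher with a promoter it was in 3, which were the 3 that defined it, and in 0 of 34 lower ones. These letters were not in the Ccl3 window. Ccl4 was named only. A match of letters is a description of the sequence.

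Across the mature neutrophils of takinib, Cxcl2, Il1a and Tnf climbed in steps with Ccl3 and Ccl4 rather than at the gate. Only picked genes were viewed in this way, and cytokine genes such as Osm and Ccl6 were not among them. Cells thinned to 1000 UMIs were placed in 6 bins of Ccl3 and Ccl4 UMIs, with 1704 cells at 0, 2240 at 1 to 4, 1682 at 5 to 9, 1930 at 10 to 19, 1315 at 20 to 39 and 434 at 40 to 144. Cxcl2 was at 15062, 18377, 24375, 32776, 47177 and 66433 CPM in these bins. Il1a, which encodes interleukin-1α, was at 116, 248, 451, 573, 814 and 1035 CPM. Tnf was at 99.2, 148, 230.1, 322, 420.5 and 742 CPM. Each of these 3 was higher in every bin than in the bin before it. Cxcr2 ran in the other direction, at 830.4, 497, 316, 278, 186 and 118 CPM.

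Other genes levelled off early. Fth1, the ferritin heavy chain that stores iron, was at 33588 CPM in cells without Ccl3 and Ccl4, 52108 CPM at 1 to 4 UMIs and 66897 CPM at 5 to 9, and 72821 to 76599 CPM in the upper 3 bins. Lcn2, a siderophore-binding protein, went from 6289 CPM to 14263 CPM at 5 to 9 UMIs and then lay between 13788 and 14507 CPM. Il1b stayed between 6784 and 7508 CPM in the 6 bins, without an order. S100a8, a gate gene, was at 67621 CPM in the first and 51781 CPM in the last bin. The median depth before thinning did not follow the bins throughout, with 1602.5 UMIs in the first, 2393.5 in the fourth and 1982.5 in the last.

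**Figure D3:**
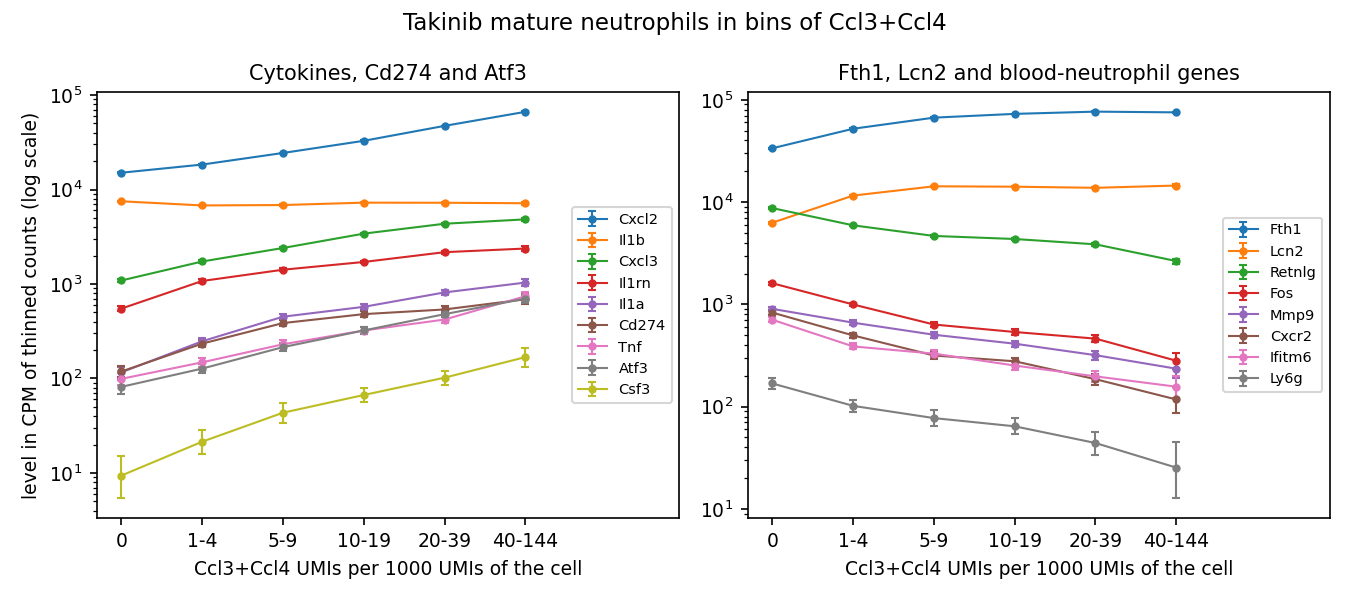
Level in CPM of thinned counts (vertical axis, log scale) against Ccl3 and Ccl4 UMIs per 1000 UMIs of the cell (horizontal axis) in takinib mature neutrophils, with exact 95% Poisson intervals; left, cytokines, Cd274 and Atf3, right, Fth1, Lcn2 and genes of blood neutrophils. Cxcl2, Il1a, Tnf and Csf3 are higher at each step, Il1b lies between 6784 and 7508 CPM, and Cxcr2 goes from 830.4 to 118 CPM.

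The genes whose UMIs followed Ccl3 and Ccl4 most closely over the 9305 thinned cells were Cxcl2 (Spearman rho 0.54), Fth1 (0.48), Il1rn (0.35), Acod1 (0.34), Lcn2 (0.31), Il1a (0.29), Cstb (0.29), Cxcl3 (0.28), Sod2 (0.27) and Slpi (0.27). Others ran the opposite way, among them Actb (-0.35), Tyrobp (-0.34), Tmsb4x (-0.33), Alox5ap (-0.33) and Cd52 (-0.32). Il1b had a rho of 0.01. These cells share 1 library and 1 depth, and rank correlations of sparse genes are small, so that the values describe an order only. Acod1 makes itaconate, a metabolite of activated myeloid cells, Cstb encodes a protease inhibitor and Sod2 the mitochondrial superoxide dismutase.

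The interleukin-1 system was split between its members. Il1a was 557 CPM [546, 567] in members and 145 CPM [135, 155] in low cells (1.87), and Il1rn, the receptor antagonist, was 1559 against 675 CPM (1.20). Nlrp3, the inflammasome sensor, was 482 against 236 CPM (1.00 after rounding, over the limit). Il1r2, the decoy receptor, was lower in members at 973 against 1589 CPM (-0.70), and Pycard, the inflammasome adaptor, was 136 against 216 CPM (-0.63). In all, 3 of 13 genes were over 2-fold higher and 0 lower, with a list median of -0.20.

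The median ratios of the TNF-family and NF-kB lists lay above that of all genes, although single members did not. Tnf was at 315 CPM [308, 323] in members and 108 CPM [99, 117] in low cells (1.47), and thinned cells held a Tnf UMI in 19.9% of members, 8.74% of low cells and 2.83% of B cells. Its receptor gene Tnfrsf1b stood at 564 against 241 CPM (1.19) and the adaptor Traf1 at 284 against 111 CPM (1.28). Of 8 TNF-family genes compared, 4 were over 2-fold higher and 0 lower, and Tnfrsf1a (-0.45) and Tnfsf14 (-0.42) were below 0. All 5 NF-kB subunit genes had ratios above 0, with a median of 0.89, from Rela at 0.15 to Relb at 1.03. Of 12 feedback inhibitors of NF-kB, 9 were above 0, Nfkbid (-0.17), Tnip2 (-0.24) and Cyld (-0.33) were below 0, and 3 were over 2-fold higher. These were Tnfaip3, which encodes the ubiquitin-editing enzyme A20 (643 against 286 CPM, 1.14), Nfkbib (1.05) and Tnip1 (1.04). Nfkbia was at 3198 against 1940.5 CPM (0.72). Map3k7 itself, the transcript of the drug target, was 21.0 against 21.6 CPM (-0.03). Of 14 genes compared in the list named TAK1 and upstream kinases, only Irak2 was past 2-fold, at 199 against 86.3 CPM (1.12). That list also holds partners of TAK1, the IKK genes Ikbkb, Chuk and Ikbkg and adaptors such as Myd88, so not every gene is an upstream kinase.

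AP-1 genes did not move as a block. Atf3, a stress-induced member of the family, was 304 CPM in members and 84.4 CPM in low cells (1.73), and Batf (0.99) and Maff (0.89) were near 2-fold higher. Fos was lower, at 657 against 1377 CPM (-1.06), and Junb (-0.44) was below 0 as well. Of 11 AP-1 genes, 1 was over 2-fold higher and 1 lower. The other early-response genes Egr1 (-0.68), Ier2 (-0.70) and Btg2 (-0.71) also had ratios below 0. Fos went from 1608 CPM in cells without Ccl3 and Ccl4 to 281 CPM in the highest bin.

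Growth factors and surface proteins were among the genes with the highest ratios. Csf3, which encodes G-CSF, the growth factor of neutrophils, was 65.7 CPM in members and 10.2 CPM in low cells (1.90). It was detected in 5.03% of thinned members, 0.944% of low cells and 1.04% of B cells, so that the share in low cells is not read as expression. Il23a, the p19 subunit of interleukin-23, was 82.3 against 24.6 CPM (1.42), and Ereg, an EGF receptor ligand, 37.0 against 7.38 CPM (1.44). Cd274, which encodes the checkpoint ligand PD-L1, was 427 CPM [418, 437] against 140.04 CPM [130.1, 150.5] (1.54), and 31.3% of thinned members, 12.0% of low cells and 6.70% of B cells held a UMI of it. F3, the tissue factor that starts coagulation, was 149 against 38.0 CPM (1.73). It was detected in 11.4% of thinned members, 2.76% of low cells and 2.38% of B cells, so that the low cells were near the B cell share. Saa1, an acute-phase protein whose transcript is close in sequence to that of Saa2, was 234 against 76.1 CPM (1.50), a value that may be shared with its copy.

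Genes of hypoxia, glycolysis, iron handling and oxidative stress were mostly above 0. Ero1l, an oxidase of the endoplasmic reticulum, was 705 against 258 CPM (1.42), and Hilpda, a lipid-droplet protein induced in hypoxia, 538 against 197 CPM (1.40). Pfkfb3, which activates glycolysis, was 492 against 211 CPM (1.18). Of 21 glycolysis and hypoxia genes, 17 were above 0 and 4 over 2-fold higher, with a median of 0.49. Hmox1, haem oxygenase 1, was 360.5 against 126 CPM (1.44). All 14 iron and antioxidant genes were above 0, with a median of 0.62, and Sod2 (1.16) and Hmox1 were past 2-fold. Among survival genes the near-identical copies Bcl2a1a, Bcl2a1b and Bcl2a1d, whose reads cannot be fully separated, had ratios of 0.83, 0.96 and 0.84, and the pro-apoptotic Bcl2l11 had 1.02. The remaining gene of the 15 highest, Ifrd1, a transcriptional co-regulator, was 362 against 130 CPM (1.41).

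Most genes of maturation and of blood neutrophils had ratios below 0 over all depths together. Of 15 such genes, 4 were over 2-fold lower, 0 higher and 13 below 0, with a median of -0.85 against -0.12 for all genes compared. The 4 were Cxcr2, Ly6g, which encodes the antigen used to stain mouse neutrophils (76.4 against 178 CPM, -1.12), Ifitm6 (302 against 672 CPM, -1.13) and Anxa1, which encodes the resolution mediator annexin A1 (228 against 479 CPM, -1.04). Mmp9, gelatinase B, was 429 against 793 CPM (-0.87) and Retnlg 4689.8 against 8432 CPM (-0.85). The Retnlg ratio was -1.13, -1.20 and -1.08 in the first 3 depth ranges and 0.28 in the deepest, with its 61 low cells. Lcn2 went the other way, at 13087 against 7848 CPM (0.74). Among the tumour neutrophil genes, a list taken from what is known of neutrophils in tumours, 4 of 16 were over 2-fold higher. They were Cd274, Hilpda, Hcar2 (1.39) and Cstb (1.11). Siglecf, a marker often used for tumour neutrophils, was lower at 15.4 against 33.7 CPM (-0.78). In vehicle it stood at 534 CPM in members (17 counts) and 379 CPM in low cells (36 counts), a ratio of 0.48.

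**Figure D4:**
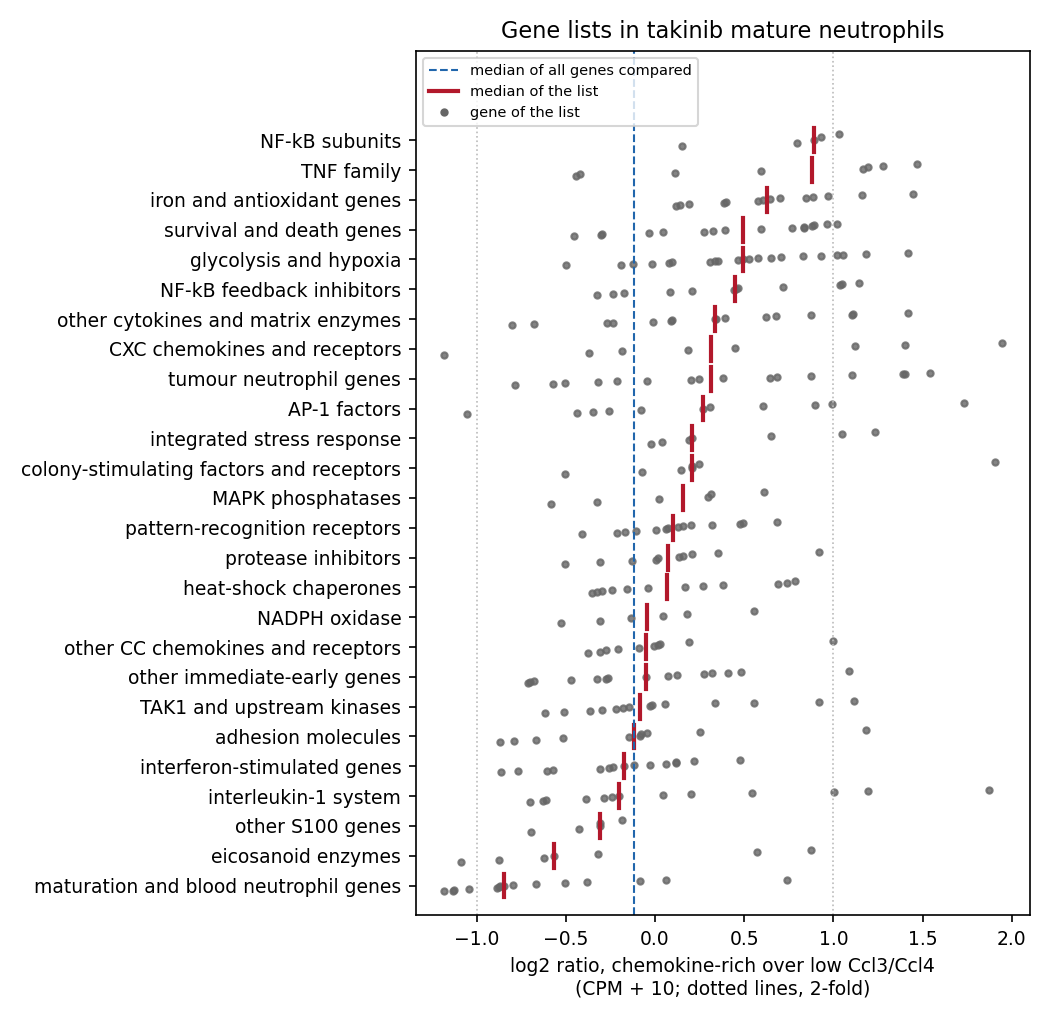
Log2 ratios of chemokine-rich over low Ccl3/Ccl4 takinib neutrophils (horizontal axis) for the genes of 26 lists (grey points), with list medians (red) and the median of all 9293 genes at -0.12 (dashed blue). NF-kB subunits have a median of 0.89 and maturation and blood neutrophil genes of -0.85.

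Of 7 eicosanoid genes compared, 1 was over 2-fold lower and 0 higher. The leukotriene genes Alox5 (42.3 against 101 CPM, -1.09) and Alox5ap (-0.88) had ratios below 0, the inducible prostaglandin genes Ptgs2 (704 against 380.0 CPM, 0.87) and Ptges (0.57) had ratios above 0, and the constitutive prostaglandin gene Ptgs1 had one below 0 (20.3 against 36.7 CPM, -0.62). Of 10 adhesion genes only Icam1 was past 2-fold, at 188 against 77.2 CPM (1.18). The 5 other S100 genes all had ratios below 0, with a median of -0.31 and 0 past 2-fold, where only 29.2% of all genes compared lay above 0. Interferon-stimulated genes had a median of -0.17, with 0 of 15 past 2-fold in either direction. Heat-shock chaperones, NADPH oxidase genes and pattern-recognition receptors had 0 genes past 2-fold. The medians of other CC chemokines (-0.05), TAK1 and upstream kinases (-0.09), other immediate-early genes (-0.05), NADPH oxidase (-0.04) and adhesion genes (-0.12) turned positive once centred, so that no direction is given for them.

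The lowest ratios of all belonged to hormone genes of the pancreatic islet and came from 1 barcode. Ins2 was 6.22 CPM in members and 206 CPM in low cells (-3.74), and Iapp (-2.90) and Ins1 (-2.14) followed. A single low Ccl3/Ccl4 barcode held 1055 of the 1089 Ins2 UMIs of its group (96.9%). Without it the Ins2 ratio was -0.02 and 33 genes were over 2-fold lower. The other genes named for low ratios were Lrg1 (376 against 892 CPM, -1.22), Tmem268 (-1.20), Nlrp12 (-1.20), R3hdm4 (-1.19), Rflnb (-1.17) and Mtus1 (-1.15). The ratio of Lrg1, a secreted glycoprotein, was -2.04 in the shallowest and -0.47 in the deepest cells. Of the 25 genes named for their ratios, 21 had the same sign in all 4 depth ranges, and the 4 others were Cxcr2 and the 3 islet genes.

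The vehicle members were too few to repeat most of these contrasts. Of the 15 genes named for high ratios, 7 had at least 10 vehicle counts and 4 of them had the same sign as in takinib. Of the 10 with low ratios, 4 had that many and all 4 had the same sign. Tnf was at 408 CPM from 13 counts in vehicle members and 126 CPM from 12 counts in vehicle low cells (1.62). Il1a was at 785 against 464 CPM (0.75), Cxcl3 at 785 against 432 CPM (0.85) and Cxcl2 at 8511 [7528, 9587] against 4119 CPM [3721, 4548]. Il1b was at 5967 CPM [5149, 6878] against 4614 CPM [4192, 5067], and Cxcr2 at 283 against 453 CPM (-0.66). Ero1l (-0.94), Hilpda (-1.48) and Atf3 (-0.27) were below 0 in vehicle, on 3, 1 and 3 counts in members. Some genes with more counts also had the opposite sign to takinib. They included Lcn2 (-1.43, 10 counts in members and 82 in low cells), Il1rn (-0.15, 33 and 109) and Egr1 (0.57, 55 and 110). No Cxcl1 or Csf3 UMI was counted in either vehicle group.

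Members held much of the chemokine transcript captured in the takinib tumour. They were 24.1% of the kept cells and held 52.6% of the Ccl3, 52.6% of the Ccl4 and 46.7% of the Cxcl2 UMIs. Members were chosen by Ccl3 and Ccl4, so the shares of these genes are a description only. For Il1rn the share was 42.9%, for Tnf 41.0%, for Il1b 39.2%, for Cxcl3 37.5%, for Il1a 36.7%, for Csf3 36.3% and for Cd274 35.8%. Cxcl1 was the exception, with 15.9% in members and 21.7% in C1q macrophages. Its level was still 84.5 CPM in members and 77.6 CPM in all kept takinib cells. Members held 19300015 of the 131951305 UMIs of the kept takinib cells. The low neutrophils held 0.775% of the Ccl3 UMIs, which the gate set, and 10.4% of the Il1b UMIs. In vehicle the picture was different. The 23 members held 3.77% of the Ccl3 and 0.916% of the Ccl4 UMIs, and C1q macrophages held 50.4% and 62.7%, against 4.52% and 5.22% in takinib. The levels in C1q macrophages were not lower in takinib, with Ccl3 at 598 CPM against 153 CPM in vehicle and Ccl4 at 424 against 253 CPM. C1q macrophages were 11.9% of the kept takinib cells and 35.1% of the kept vehicle cells. Library and treatment cannot be told apart in these differences.

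**Figure D5:**
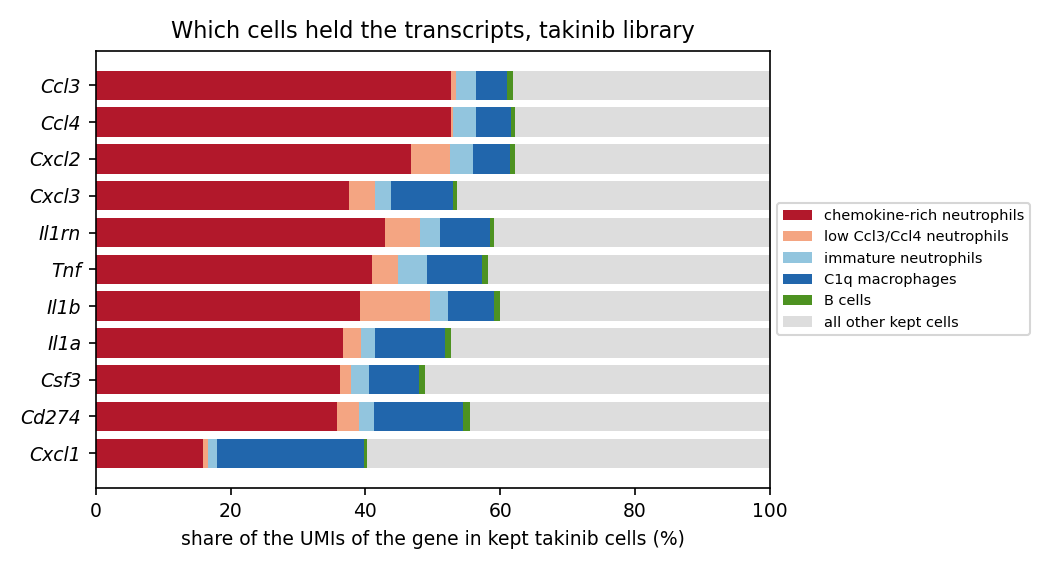
Share (horizontal axis, %) of the UMIs of 11 genes in kept takinib cells that lay in chemokine-rich neutrophils (red), low Ccl3/Ccl4 neutrophils (orange), immature neutrophils (light blue), C1q macrophages (dark blue), B cells (green) and all other kept cells (grey). Members, which were chosen by Ccl3 and Ccl4, held 52.6% of Ccl3 and 15.9% of Cxcl1.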

How the data were processed

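Single-cell RNA was measured in 2 libraries, 1 vehicle and 1 takinib. The authors deposited raw UMI counts of 32285 genes per barcode, made with Cell Ranger 4 for vehicle and 6.1.1 for takinib per the file headers. The submitters' processing notes name mm10, Cell Ranger 2.1.1, STAR 2.0.4b and featureCounts 1.45 without their role. Groups came from the labels. Within a group of cells, counts were added up and scaled to CPM. Genes sharing a symbol (78 rows) were left out. Log2 ratios used a pseudocount of 10 CPM, and genes needed 50 summed counts in either group. With 1 library per group no test was made. The genes named are the 15 highest and 10 lowest ratios, leaving out gate, mitochondrial, ribosomal, haemoglobin, immunoglobulin and unnamed genes, plus members of 26 lists chosen by role. The members, gate and lists were chosen with earlier results of these data known. Doublets were not removed, and as an alternative the highest 6% of Scrublet scores were dropped (scanpy 1.11.5). Depth per library and the intervals are given in the results. The ratio step was tested on simulated data. Python 3.11.15, numpy 2.4.6, scipy 1.17.1 and pandas 2.3.3 were used. Alternatives covered the gate, filters, scaling, pseudocount and doublets.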

Additional observations from a re-analysis of the deposited data

How the results depend on the processing

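No paired analysis was possible because each group has 1 library, and no library could be left out. Of 15 alternative settings, 14 were planned and 1, the low group without the islet barcode, was chosen after seeing the data. Of 3847 gene ratios recomputed under them, 0 that were past 2-fold changed sign, and Saa1 (0.999 in the lowest setting) was the only 1 of the 15 genes named for high ratios to leave the 2-fold range. Percentages below are shares of mature neutrophils that were members and of the kept takinib UMIs of Ccl3, Ccl4, Cxcl2 and Il1b held by members. With a gate of 3 Ccl3 and Ccl4 UMIs the takinib share was 75.3%, and members held 53.1% of Ccl3, 48.2% of Cxcl2 and 41.3% of Il1b. With a gate of 10 the share was 58.6% in takinib and 9.57% in vehicle (9 cells), members held 51.0%, 51.9%, 43.8% and 35.4%, and 28 genes were higher and 11 lower. Thinned to 1000 UMIs the takinib share was 57.6%, members held 57.5%, 62.4%, 48.1% and 36.4%, and 34 genes were higher. At 2000 UMIs and 1000 genes the takinib share was 85.7% (2213 cells), 1 vehicle member remained, and members held 42.0%, 39.1%, 37.9% and 33.4%. With S100a8 and S100a9 at 6% 8 vehicle members remained and takinib members held 42.8%, 44.2%, 39.0% and 32.3%, and at 10% mitochondrial UMIs 2 vehicle members remained. Without the highest doublet scores members held 56.4%, 56.9%, 50.4% and 42.0%. Against cells with 0 Ccl3 and Ccl4 UMIs 146 genes were higher and 124 lower, with a pseudocount of 1 CPM 139 and 145, and centred on the median gene 91 and 16. With each cell weighing the same 60 were lower. Of 390 list medians, 3 whose counting interval excluded 0 changed sign, protease inhibitors thinned (-0.018), adhesion genes centred (0.0036) and the interleukin-1 system at 500 counts (0.042). Each of the 10 genes named for low ratios was within the 2-fold range in 1 to 3 settings, Cxcr2 at 2000 UMIs and 1000 genes (-0.58). The causes were not tested. The 23 vehicle members and their 31842 UMIs limit every vehicle contrast.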

Other observations

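Among the genes over 2-fold higher in the takinib members that belong to no list, Acod1 had a log2 ratio of 1.24, Abcc1, a glutathione-conjugate exporter, 1.30, Serpinb2, the plasminogen activator inhibitor 2, 1.27, and F10, coagulation factor X, 1.10. Hamp, the iron-regulating hormone hepcidin, had 1.21. Among the lower genes Slc40a1, the iron exporter ferroportin, had -1.05 and Rab27a, which guides granule release, -1.13. These 7 genes were chosen after their values were seen.

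Cells without any Ccl3 or Ccl4 UMI among 1000 were 18.3% of the takinib mature neutrophils, and their Retnlg level was 8728 CPM, against 2650 CPM in the 434 cells of the highest bin. Slpi, a secreted inhibitor of neutrophil elastase, ran from 2782 to 7954 CPM over the same bins. S100a9, a gate gene, was at 62032 and 56099 CPM in the first and last bin.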
